A study of Mus musculus with 3 samples.

Results

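Mature neutrophils low in secondary granule transcripts were the cells described here, in 3 droplet libraries of mouse liver. Members were chosen by a fixed rule on measured counts, after barcodes with under 200 genes or over 20% mitochondrial counts had been removed. Counts are of UMIs, the molecular tags that mark each captured transcript once. S100a8 and S100a9 had to make up at least 2% of the UMIs of a barcode, and Csf3r, Cxcr2, Retnlg and Il1r2 together had to hold at least 1 UMI. Ngp, Camp and Ltf together had to stay under 0.5% of UMIs, and Elane, Mpo and Prtn3 under 0.3%. The rule selected 2380 of 20913 kept barcodes, namely 49 of 4734 from the control, 178 of 5509 from day 4 and 2153 of 10670 from day 21.

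The cells were liver non-parenchymal cells, obtained by perfusion and dissociation from female Balb\c mice. The control mice received PBS, the day 4 and day 21 mice received 4T1 cells, a mouse mammary carcinoma line, at the orthotopic site, and no other agent or allele is named in the labels. Mice were 8 weeks old in the control and day 4 groups and 11 weeks old in the day 21 group, so that age and time after injection cannot be told apart at day 21. Each group was 1 library, and the labels do not give the number of mice in it, so no difference between groups has a replicate check or a test. All intervals below are 95% intervals that cover counting error only.

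Neutrophils are made in the bone marrow and pack their granules in order of maturation. Primary granules, with elastase and myeloperoxidase, are filled in promyelocytes. Secondary or specific granules, with lactoferrin, cathelicidin and neutrophilic granule protein, are filled in myelocytes and metamyelocytes, and tertiary or gelatinase granules later. Transcription of the secondary granule genes stops as cells mature, while the receptors for G-CSF and CXC chemokines and the cytosolic S100A8 and S100A9 proteins are kept or gained. The liver holds few neutrophils at rest, and marrow output can be raised in mice that carry a mammary tumour.

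The 3 libraries held 27191082 to 51913215 UMIs over 6489 to 12338 barcodes, of which 13.5 to 39.96% were removed by the filters on genes and mitochondrial UMIs. The members' UMIs summed to 85385, 313770 and 4818274 in the control, day 4 and day 21 libraries, so the control limits the precision of every comparison that uses it. Median depth per member was close in the 3 libraries, at 1437, 1664 and 1793 UMIs. Of the barcode sequences, 13 to 32 occurred in both libraries of a pair, and 0 of these were members in both. One control member stood apart: it held 16796 UMIs, 19.7% of the control sum, where the second deepest held 2818. It carried 202 of 212 control UMIs of Cd74, 140 of 141 of H2-Aa, 409 of 496 of Cst3 and all 23 of Irf8, besides 8 of Flt3, 8 of Xcr1 and 7 of Clec9a, genes of dendritic cells, and 2.38% of its UMIs were S100a8 and S100a9. Control values below include this barcode, and some are also given without it.

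Members were 1.04% (0.767 to 1.37) of kept barcodes for the control, 3.23% (2.78 to 3.73) for day 4 and 20.2% (19.4 to 20.95) for day 21. The share at day 4 was 3.099-fold (2.27 to 4.24) that of the control, and the share at day 21 was 6.23-fold (5.37 to 7.23) that of day 4 and 19.3-fold (14.6 to 25.5) that of the control. Granule-rich neutrophils, which met the same rule except that Ngp, Camp and Ltf made up 0.5% or more, numbered 2, 7 and 1945. Members therefore made up 96.1% (86.5 to 99.5) of both kinds together for the control, 96.2% (92.4 to 98.5) for day 4 and 52.5% (50.995 to 54.1) for day 21. The sets were drawn by cutting on the same granule genes, so this split describes the rule in each library.

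**Figure D1:**
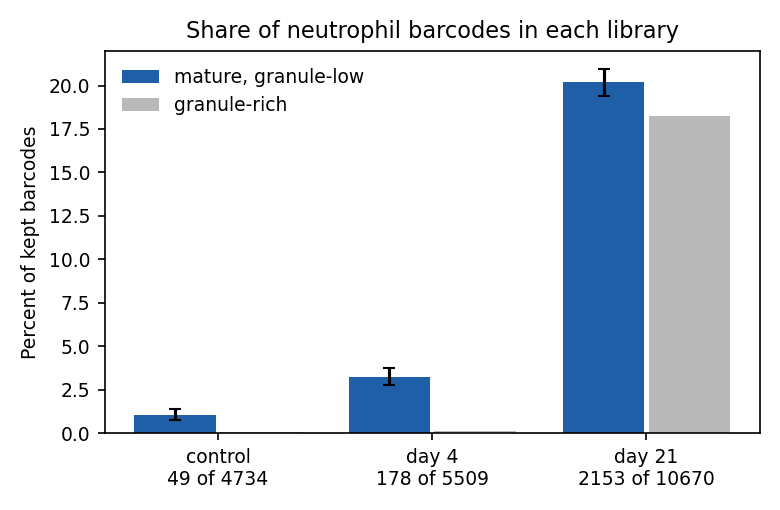
Bars give the percentage of kept barcodes in the control, day 4 and day 21 libraries that were members (blue, with exact 95% binomial intervals) or granule-rich neutrophils (grey), with the member count under each bar. Members made up 1.04, 3.23 and 20.2%, and granule-rich barcodes appeared in number at day 21.

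The limits of the rule cut a continuous range at day 21 and little at the other times. At day 21, 51 members lay just inside the granule limit, between 0.4 and 0.5% of UMIs, and 35 barcodes just outside, between 0.5 and 0.6%. Lcn2 stood at 8043 and 8627 CPM (UMIs scaled to a sum of 1000000) in these neighbouring sets, Il1b at 401 and 338, and Ly6g at 1394 and 1549. Near the limit for S100a8 and S100a9, 22 members held 2 to 2.5% and 39 barcodes 1.5 to 2%, with Il1b at 2180 and 2142 and Csf3r at 568 and 376 CPM. At day 4, 1 member lay between 0.4 and 0.5% for the granule genes and 0 barcodes between 0.5 and 0.6%, and the control had 0 in both ranges.

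The genes that chose the members are given as a description. In what follows, 3 values in a row belong to the control, day 4 and day 21 members, and levels are in CPM of the members' summed UMIs. Where UMIs are given instead, the sums behind them differ in size, so a larger count need not be a higher level. S100a8 and S100a9, the 2 chains of calprotectin, together took 10.3, 16.5 and 27.9% of the members' UMIs, and the ratio of S100a9 to S100a8 was 1.52, 1.44 and 1.14. Without the deepest control barcode they took 12.3% in the control. Csf3r, the G-CSF receptor, stood at 2787, 2355 and 849.7, and Cxcr2, the receptor for neutrophil-attracting CXC chemokines, at 925, 1868 and 646. Both were lowest at day 21. Retnlg, a resistin-like secreted protein of neutrophils, went the other way, at 2342, 4959 and 15979.8, while the interleukin 1 decoy receptor Il1r2 stood at 492, 369.7 and 165. Il1b, which the rule did not use, encodes interleukin 1 beta and was found in 97.96, 94.9 and 88.5% of members.

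Neutrophil transcripts were also found in barcodes that should lack them, mostly at day 21. The endothelial barcodes used here had under 2% S100a8 and S100a9 by choice, so those with more of this RNA were left out. Among endothelial barcodes thinned to 1000 UMIs, 0.183, 0.213 and 60.7% held an S100a8 UMI, 0.0459, 0.0426 and 12.9% an Ngp UMI and 0.0459, 0.0852 and 1.85% an Il1b UMI. Members thinned to the same depth held Ngp in 0, 2.44 and 32.5% of cells and Il1b in 90.7, 91.5 and 74.5%. Median unthinned depths of those endothelial barcodes were 4958, 4882 and 2622 UMIs. Elane, Mpo and Prtn3 were detected in 1.67, 2.47 and 3.68% of thinned day 21 members and in 2.23, 2.31 and 2.77% of endothelial barcodes. The rule capped these 3 genes in members.

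Of the 6 neutrophil markers, 5 were read by the rule, and are no check of the label. The remaining marker, Il1b, stood at 5516, 6319.9 and 3149 CPM, against 0.963, 1.72 and 26.8 in endothelial barcodes. Of 13 marker lists of other cell types, the erythroid list reached the highest sum, 0.0199, 2.25 and 0.49%, with 5 day 4 members and 49 day 21 members holding 1% or more. The dendritic list summed to 0.408, 0.0411 and 0.0309%, and the control value was 0.0175% without the deepest barcode. Hepatocyte markers summed to 0.21, 0.201 and 0.108%. Basophil and mast cell markers summed to 0.167, 0.139 and 0.12%, with 9, 9 and 0 of these 10 markers at 0. The control and day 4 sums thus came from the only marker of the list that was found. At day 21, 9 members held 1% or more of these markers. In kept barcodes with under 2% S100a8 and S100a9 the basophil and mast cell markers summed to 0.00628, 0.00671 and 0.0669%. Kupffer cell markers summed to 0.0843, 0.0637 and 0.0737%, monocyte markers to 0.0679, 0.0532 and 0.0593% and endothelial markers to 0.0457, 0.0443 and 0.108%. The eosinophil list was near 0, at 0.00234, 0.00223 and 0.00232%, with 8, 8 and 5 of its 10 markers at 0. At day 21, 182 members were called doublets and 186 held 1% or more of the markers of another type.

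Across all genes, few counts were available in the control. A gene is called higher or lower below where its ratio reached 2-fold. Among 1018 genes with 50 or more UMIs in the 2 sums together, leaving out the 12 genes of the rule, 59 (5.8%) were called higher at day 4 than in the control and 111 (10.9%) lower. Without the deepest control barcode these were 39 and 42. Between day 21 and day 4, 900 of 5951 genes (15.1%) were called higher and 897 (15.1%) lower, and between day 21 and the control 821 of 5853 (14%) and 1797 (30.7%). Many of these genes had under 10 UMIs expected in the smaller sum at equal rates. Among genes with 10 or more, a limit set after the totals were seen, 303 were higher and 449 lower of 2791 between day 21 and day 4, and 99 higher and 149 lower of 825 between day 21 and the control.

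S100a8 and S100a9 took up more of the UMIs at the later times, and the scaling moved these splits. Scaling by the median of ratios added to the log2 ratio of each gene 0.31 for day 4 over control, 0.50 for day 21 over control and 0.18 for day 21 over day 4. Calls were then 133 higher and 62 lower, 1213 and 837, and 1067 and 581. With the total without S100a8 and S100a9 they were 78 and 93, 1077 and 1154, and 1103 and 547. The median log2 ratio of all genes with 50 or more UMIs was -0.03, -0.53 and -0.16 under total scaling, and the lists below are read against that shift.

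Lists were summarised over genes with 20 or more UMIs in the 2 sums together. Among all such genes, 7.5% were called higher and 13.1% lower for day 4 over control, 9.77 and 34.8% for day 21 over control, and 18.7 and 16% for day 21 over day 4, with all-gene medians of -0.13, -0.51 and -0.11. Both comparisons with the control share its library, so they are set side by side and not counted as 2 observations. Genes with near-identical copies, namely the stefin A genes Stfa1, Stfa2, Stfa2l1, Stfa3, BC100530, BC117090 and Gm5483, the pair Ifit3 and Ifit3b, and Gbp2 with Gbp2b, could have exchanged counts, so their single levels are uncertain.

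Genes of small calcium-binding proteins and protease inhibitors were higher at day 21. Of 14 measured genes of the S100 and stefin A list, 10 were called higher than at day 4 and 0 lower, with a median log2 ratio of 1.78. The 2 other listed genes are S100a8 and S100a9. Of the 13 genes with 10 or more UMIs expected in the smaller sum, 9 were called higher, where 303 of all 2791 such genes were. Wfdc17, a whey acidic protein family member made by activated myeloid cells, lies at chr11:83703991-83706268 (GRCm38) and stood at 339.6, 2792 and 15202 CPM. Its log2 ratio was 3.02 (2.51 to 3.63) for day 4 over control and 2.44 (2.35 to 2.54) for day 21 over day 4, so each library lay above the one before. It was found in 23.3, 63.4 and 98.04% of thinned members, against 1.33, 2.22 and 6.77% of endothelial barcodes. Wfdc21, of the same family, stood at 738, 1552 and 6125.

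Stefin A proteins inhibit cysteine cathepsins. Stfa2 stood at 81.98, 98.8 and 1208, close in the control and at day 4 and 12.04-fold higher at day 21. Stfa3 had 0, 21 and 3607 UMIs, at least 21.3-fold higher at day 21 than in the control, taking a floor of 3 UMIs per sum for a sum at 0. BC100530 stood at 293, 475 and 2297, whereas Stfa2l1, at 1171, 1367 and 1189.6, and Gm5483, at 1136, 1300.3 and 1872, were each within 2-fold across the 3 libraries. S100a6, a calcium-binding protein, stood at 4380.2, 5998 and 14395, with a log2 ratio of 1.26 (1.197 to 1.33) for day 21 over day 4. S100a4, linked to cell motility, had 0, 0 and 301 UMIs and BC117090 0, 2 and 325, and 50% of the S100a4 UMIs lay in 16 of 2153 members. S100a11 was within 2-fold throughout, at 3619, 4350.3 and 3464. For day 4 over control, 4 of 10 genes of this list were called higher, and 2 without the deepest control barcode. Asprv1, an aspartic protease, stood at 363, 899 and 761. Against the control, at day 21 10 of 14 were, with a median of 2.99, or 1.38 with the 4 genes at 0 set to their bound.

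**Figure D2:**
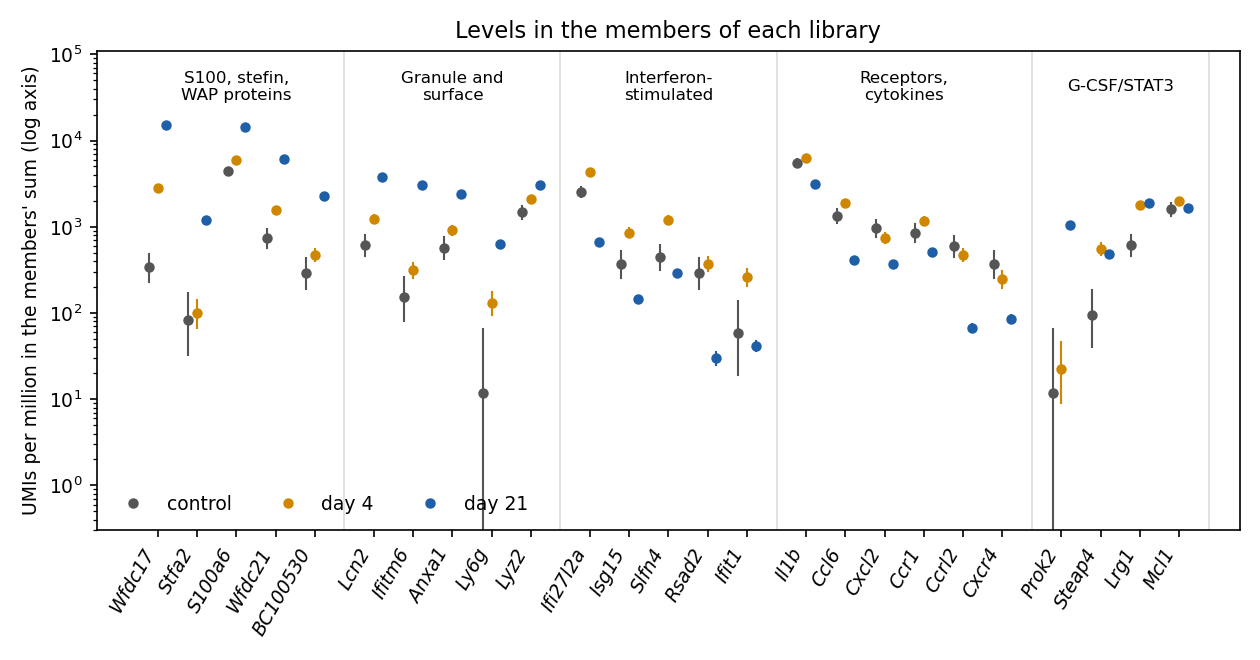
Points give the level of each gene as CPM of the members' summed UMIs on a log axis, with exact 95% Poisson intervals, for the control (grey), day 4 (orange) and day 21 (blue). Wfdc17 was at 339.6, 2792 and 15202, Isg15 at 375, 851 and 146 and Ccrl2 at 597, 475 and 67.2: the first was highest at day 21, the second at day 4 and the last in the control.

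Most genes of the secondary granule list that the rule did not use were higher at day 21 even though the rule capped 3 others. Of 8 measured, 6 were called higher than at day 4 and 0 lower, with a median log2 ratio of 1.59. The 6 include Ltb4r1, a leukotriene B4 receptor gene that is also counted with the receptors below. All 8 had 10 or more UMIs expected in the smaller sum. Lcn2, lipocalin 2, which binds bacterial siderophores, stood at 609, 1230.2 and 3748. Ifitm6, a myeloid member of the interferon-induced transmembrane family, stood at 152, 316 and 3061, with a log2 ratio of 3.27 (2.99 to 3.58) for day 21 over day 4 and 1.004 (0.21 to 2.01) for day 4 over control. Without the deepest control barcode its control level was 190, closer to that at day 4. Anxa1, annexin A1, stood at 574, 905 and 2368 and Cd177, a surface glycoprotein of neutrophils, at 11.7, 47.8 and 194. Chil3, a chitinase-like protein, had 0, 0 and 194 UMIs. Hp, haptoglobin, did not share this pattern, at 2389, 3213 and 2392. The capped genes themselves were at 0, 54.2 and 728 for Ngp, 0, 60.6 and 168 for Camp and 0, 0 and 70.4 for Ltf.

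Day 21 endothelial barcodes held Lcn2 at 74.8, Ifitm6 at 51.1 and Camp at 121 CPM. Camp in members was thus near the level in cells that should lack it, while Lcn2 and Ifitm6 were far above. Ly6g, the surface antigen that defines mouse neutrophils, had 1, 41 and 3026 UMIs, or 11.7, 131 and 628 CPM. Its log2 ratio was 2.25 (1.82 to 2.75) for day 21 over day 4, and it was found in 0, 8.54 and 34.04% of thinned members. Of its family, Ly6e stood at 433, 363 and 128 and Ly6c1 had 2, 3 and 124 UMIs.

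Tertiary granule genes differed little. Of 10 measured, 1 was called higher at day 21 than at day 4, namely Cd177, which both granule lists hold, and 0 lower. The gelatinase gene Mmp9 stood at 890.1, 835 and 752 and the collagenase gene Mmp8 at 480.2, 886 and 900.1. Adam8, a surface metalloprotease, stood at 398, 316 and 171 and Padi4, which citrullinates histones, at 46.8, 44.6 and 76.999. Of the primary granule genes outside the rule, Ctsg had 0, 0 and 228 UMIs and Ctsc, the protease that activates granule serine proteases, 7, 6 and 796. At day 21, 50% of the Ctsg UMIs lay in 6 members, and endothelial barcodes held it at 57.8 CPM against 47.3 in members.

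Genes stimulated by type I interferon, whose products block viral replication and sense nucleic acids, were higher at day 4 than at the other times. Of 26 measured for day 4 over control, 15 were called higher and 0 lower, with a median log2 ratio of 1.11. Without the deepest control barcode these were 12 and 0, with a median of 0.90. Of 37 measured for day 21 over day 4, 28 were called lower and 3 higher, with a median of -1.71. Of the 19 with 10 or more UMIs expected in the smaller sum, 18 were called lower, where 449 of all 2791 such genes were. The other 4 of 41 listed genes had too few UMIs. Against the control, at day 21 14 of 38 were called lower and the median, -0.62, was close to that of all genes, -0.51.

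Ifi27l2a, a small interferon-induced protein, stood at 2553, 4264 and 668. Isg15, a ubiquitin-like modifier, stood at 375, 851 and 146, with log2 ratios of 1.16 (0.65 to 1.76) for day 4 over control and -2.54 (-2.75 to -2.33) for day 21 over day 4. Both were thus highest at day 4. Slfn4, a myeloid schlafen gene, followed the same order at 445, 1205 and 291. Ifit1, which binds foreign RNA ends, had 5, 81 and 200 UMIs, or 58.6, 258 and 41.5 CPM. Trim30a, a tripartite motif protein, stood at 105, 468 and 167 and Rtp4, a receptor transporter protein, at 246, 637 and 221. Rsad2, the antiviral enzyme viperin, stood at 293, 369.7 and 29.7, and its log2 ratio for day 4 over control had an interval that includes 0, 0.31 (-0.297 to 1.02). At day 21 it was 12.5-fold lower than at day 4.

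The near-identical Ifit3 and Ifit3b had fewer UMIs at day 21 than at day 4, although the members' sum was 4818274 UMIs against 313770: 37 and 20 for Ifit3, 39 and 21 for Ifit3b. Ifit2, of the same family, had 0, 27 and 26. The list also held genes without this order. Ifitm3, which blocks viral entry, was highest at day 21, at 949, 1976 and 3295, and Ms4a4c had 1, 2 and 145 UMIs. Endothelial barcodes had the same order for Isg15, at 88.99, 131 and 45.7, and for Ifi27l2a, at 296, 452 and 242 CPM, and the part of their RNA in the members' values was not tested.

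The stretches before the transcription start of 4 of these genes are shown because these genes were lower together at day 21 than at day 4 and each holds the core of the interferon-stimulated response element. Sequences are from RefSeq on GRCm38.p6, the 160 bases before the start, read 5′ to 3′ on the gene's strand, and capitals mark matches to GAAANNGAA on either strand. Rsad2 lies at chr12:26456453-26456612 on the minus strand, Isg15 at chr4:156200819-156200978 on the minus strand, Ifit1 at chr19:34640729-34640888 on the plus strand and Ifit3 at chr19:34583369-34583528 on the plus strand.
Rsad2: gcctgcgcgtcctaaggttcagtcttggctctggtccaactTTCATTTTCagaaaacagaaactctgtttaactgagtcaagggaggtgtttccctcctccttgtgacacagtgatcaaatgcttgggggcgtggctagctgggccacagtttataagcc
Isg15: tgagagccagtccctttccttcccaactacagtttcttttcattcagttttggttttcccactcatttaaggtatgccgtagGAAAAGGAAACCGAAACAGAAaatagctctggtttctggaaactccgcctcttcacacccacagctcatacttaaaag
Ifit1: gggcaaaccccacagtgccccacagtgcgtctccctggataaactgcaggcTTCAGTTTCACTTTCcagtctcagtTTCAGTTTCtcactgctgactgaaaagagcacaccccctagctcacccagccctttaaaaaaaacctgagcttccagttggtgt
Ifit3: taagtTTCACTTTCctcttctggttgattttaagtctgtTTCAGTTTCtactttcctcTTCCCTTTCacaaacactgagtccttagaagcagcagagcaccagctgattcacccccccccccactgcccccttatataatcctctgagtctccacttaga
Rsad2 held 1 match and the other 3 genes 3 each, some of which overlap one another. The Isg15 stretch also holds 1 match to GGANTTTCC, the NF-kB motif used below, left in lower case. Over the 250 bases before the start, 14 of the 32 listed interferon genes found in the table held a match in at least 1 window, or 39.5% of their 38 windows, against 7.13% of 32851 windows over 27025 genes. A match describes letters, not a bound site.

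Interferon gamma-inducible genes gave a mixed picture. Gbp2b, a guanylate-binding protein, had 2, 69 and 329 UMIs, or 23.4, 220 and 68.3 CPM. Gbp7, of the same family, had 3, 63 and 233 UMIs, or 35.1, 201 and 48.4 CPM. For day 4 over control their log2 ratios were 2.92 (1.32 to 6.31) and 2.304 (0.902 to 4.83), with 2 and 3 control UMIs behind them. Of the 21 genes of that list measured for day 21 over day 4, 7 were called lower and 4 higher. The shares were 33.3 and 19%, against 16 and 18.7% of all genes. Gbp2, which shares sequence with Gbp2b, had 4, 56 and 297 UMIs and was called lower. The serpin Serpina3g had 0, 1 and 121 UMIs and was called higher. Irf8, with 23, 2 and 286 UMIs, had all its control counts in the deepest barcode and is not compared with the control.

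Surface receptors for chemoattractants were lower at day 21 in part. Of 20 measured outside the rule, 6 were called lower than at day 4 and 3 higher. The shares were 30 and 15%, against 16 and 18.7% of all genes. Ccrl2, an atypical receptor that presents chemerin, stood at 597, 475 and 67.2, with log2 ratios of -0.34 (-0.799 to 0.16) for day 4 over control and -2.82 (-3.104 to -2.53) for day 21 over day 4. Cxcr4, which holds neutrophils in the marrow and marks aged cells, stood at 375, 245 and 85.1. Ccr1, a receptor for CC chemokines, stood at 855, 1166 and 504 and was 2.32-fold lower at day 21 than at day 4. The genes called higher were Ltb4r1, the leukotriene B4 receptor, at 23.4, 86.1 and 261, Il4ra, at 58.6, 66.9 and 144, and Ccr2, at 23.4, 19.1 and 91.5. At day 21, 50% of the Ccr2 UMIs lay in 18 of 2153 members, and Ccr2 is also a monocyte marker. Csf2rb, the common beta chain for GM-CSF, stood at 152, 357 and 234, and Fpr1, a formyl peptide receptor, at 81.98, 149.8 and 205.

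The stretch before the start of Ccrl2 is shown as that of the receptor gene with the lowest ratio, with a match to GGANTTTCC, an NF-kB motif, in capitals. It lies at chr9:111057519-111057678 on the minus strand and belongs to the first of 3 listed starts.
Ccrl2: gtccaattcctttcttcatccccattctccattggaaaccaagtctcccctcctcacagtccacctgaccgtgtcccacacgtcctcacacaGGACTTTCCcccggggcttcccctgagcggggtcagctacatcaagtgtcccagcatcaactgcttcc
On either strand this motif occurred in 1.07% of the 32851 windows, in 28.6% of 21 windows of the NF-kB feedback list and in 27.3% of 22 windows of the cytokine and chemokine list.

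Some cytokine genes were lower at day 21, among them the most abundant of the list. Of 19 measured, 6 were called lower than at day 4 and 4 higher, with a median log2 ratio of -0.57. The shares were 31.6 and 21.1%, against 16 and 18.7% of all genes. Il1b stood at 5516, 6319.9 and 3149, with a log2 ratio of 0.195 (0.05 to 0.34) for day 4 over control and -1.01 (-1.07 to -0.94) for day 21 over day 4. Without the deepest control barcode the Il1b ratio for day 4 over control changed sign, to -0.099. Ccl6, a CC chemokine, stood at 1335, 1880.4 and 412, and Cxcl2, a ligand of CXCR2, at 960.4, 736 and 365. Il1rn, the interleukin 1 receptor antagonist, stood at 129, 159 and 37.8. All 4 were lowest at day 21. Across the settings tried, the Il1b ratio for day 21 over day 4 ran from -1.42 to -0.44. The chemokine Ccl4 stood at 70.3, 163 and 150.3, and the growth factor Csf1 at 246, 115 and 60.6. The 4 genes called higher at day 21 than at day 4 were of few UMIs at day 4: Bmp2 had 0, 10 and 352, Ccl9 0, 1 and 135, Il1a 3, 0 and 125 and Tnf 1, 0 and 20. At day 21 endothelial barcodes held Il1a at 461 CPM against 25.9 in members.

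Feedback genes of NF-kB and immediate early genes had medians below that of all genes, -0.11, with counts of calls nearer the background of 16% lower. Of 19 NF-kB feedback genes, 5 were called lower at day 21 than at day 4 and 1 higher, with a median of -0.87. Nfkbia, the inhibitor IkB alpha, stood at 1124, 809.5 and 354. Icam1, an adhesion molecule, had 2, 11 and 66 UMIs, Nfkbib, the inhibitor IkB beta, 1, 2 and 100 and Gadd45b 12, 43 and 289. Icam1 and Gadd45b were called lower and Nfkbib higher. Ier3, an early response gene, stood at 58.6, 217 and 269, higher at day 4 than in the control with a log2 ratio of 1.76 (0.595 to 3.56). Of 23 immediate early genes, 5 were called lower and 3 higher, with a median of -0.69. Btg1, an anti-proliferative gene, stood at 3642, 3585 and 1299, and Dusp1, a phosphatase of MAP kinases, at 3221, 2346 and 1265. The AP-1 genes Jun, with 7, 5 and 489 UMIs, and Fosb, with 2, 2 and 176, and Klf4, a Kruppel-like factor with 0, 2 and 124, were among those called higher at day 21 than at day 4. In day 21 endothelial barcodes Jun was at 721 CPM, against 101 in members, and Fosb at 312 against 36.5.

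Several glucocorticoid-responsive genes were highest in the control and lowest at day 21. Of 13 measured for day 21 over control, 8 were called lower and 3 higher, with a median of -1.52. The shares were 61.5 and 23.1%, against 34.8 and 9.77% of all genes. Tsc22d3, which encodes GILZ, stood at 843, 551 and 260.5 and Txnip, a thioredoxin-binding protein, at 1089, 806 and 370.3. Fkbp5, a chaperone of the receptor, had 6, 16 and 95 UMIs and was also called lower. Rgs2, a regulator of G protein signalling, stood at 586, 484 and 202. The circadian gene Per1 stood at 176, 41.4 and 26.4. The collection hour is not given in the labels, and its part in these values was not tested. Cebpd, a C/EBP factor, was an exception, at 480.2, 1019.9 and 886.

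Of 18 adhesion genes, 5 were called lower at day 21 than at day 4 and 3 higher. The shares were 27.8 and 16.7%, against 16 and 18.7% of all genes. Among the 14 with 10 or more UMIs expected in the smaller sum, 3 were lower and 2 higher, where 449 and 303 of all 2791 such genes were. The integrin chain Itga4, lowest at day 21, stood at 422, 277 and 89.2 and Itgal, a chain of LFA-1, at 480.2, 347 and 141. Among pattern and Fc receptors, 7 of 20 (35%) were called lower and 0 higher. Clec4n, which encodes dectin 2, had 3, 21 and 60 UMIs and Tlr4, the endotoxin receptor, 1, 22 and 114. Tlr13, a sensor of bacterial RNA, had 7, 40 and 211. Each of them was called lower at day 21 than at day 4. Clec4d, a C-type lectin, stood at 656, 634 and 276 and Fcer1g, the common gamma chain of Fc receptors, at 1862, 2244 and 1935, the latter within 2-fold throughout.

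Genes of the G-CSF and STAT3 response split by time. Steap4, a metalloreductase, stood at 93.7, 555 and 489 and Lrg1, a secreted leucine-rich glycoprotein, at 609, 1801 and 1866, both already higher at day 4. For day 4 over control the log2 ratio was 2.48 (1.55 to 3.7998) for Steap4 and 1.55 (1.15 to 2.003) for Lrg1. Steap4 was also present in endothelial barcodes, at 203, 286 and 609.9. Prok2, a chemoattractant peptide of the prokineticin family, lies at chr6:99711299-99726392, had 1, 7 and 5099 UMIs and was 44.3-fold higher at day 21 than at day 4. It was found in 2.33, 1.22 and 46.3% of thinned members and 0.077% of endothelial barcodes at day 21. Socs3, a feedback inhibitor of STAT3, stood at 386, 650.2 and 325 and Pim1, a STAT-induced kinase, at 398, 548 and 242, both lowest at day 21. Of 18 measured for day 21 over day 4, 6 were called higher and 2 lower. The shares were 33.3 and 11.1%, against 18.7 and 16% of all genes.

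Saa3, an acute phase serum amyloid A, had 0, 0 and 1469 UMIs and was at least 31.9-fold higher at day 21 than at day 4. It was confined to a minority of day 21 members: 191 of 2153 held it, and 50% of its UMIs lay in 34. The stretch before its start, at chr7:46715677-46715836 on the minus strand, is shown as that of a gene with 0 UMIs at both earlier times, with a match to TTGCNNAA, a C/EBP motif, in capitals.
Saa3: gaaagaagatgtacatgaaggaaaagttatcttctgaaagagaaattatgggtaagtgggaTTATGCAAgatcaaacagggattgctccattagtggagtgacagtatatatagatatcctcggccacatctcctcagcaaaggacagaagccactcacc
The C/EBP motif occurred, on either strand, in 9.56% of the 32851 windows and in 17.6% of 17 windows of the G-CSF and STAT3 list. The printed Saa3 stretch also holds 1 match to GAAANNGAA, the interferon motif above, left in lower case.

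Signature genes named from tumour-bearing hosts were divided. Among all genes 18.7% were called higher at day 21 than at day 4 and 16% lower. Of 16 genes of the myeloid suppressor list, 2 (12.5%) were called higher and 6 (37.5%) lower. Those higher were Wfdc17 and Nos2, the inducible nitric oxide synthase, with 0, 0 and 128 UMIs in 108 of 2153 members. Jaml, a junctional adhesion molecule of leukocytes, stood at 1148, 1039 and 207, and Ptgs2, cyclooxygenase 2, at 93.7, 124 and 32.8. Arg2, mitochondrial arginase, stood at 386, 574 and 370.5, within 2-fold throughout. Of 18 genes of the tumour neutrophil list, 5 (27.8%) were called higher and 3 (16.7%) lower. Ninj1, a membrane rupture protein, stood at 386, 271 and 67.5 and Ptma, prothymosin alpha, at 679, 204 and 656. The decoy receptor gene Tnfrsf23 had 1, 15 and 62 UMIs and was called lower at day 21 than at day 4. Fth1, ferritin heavy chain, stood at 11219.8, 11821 and 5996.

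Some glycolytic genes were higher at day 21. Of 27 genes of the glycolysis and hypoxia list, 8 were called higher than at day 4 and 2 lower, a share of higher genes of 29.6% against 18.7% of all genes, with a median of 0.57 against -0.11. Gapdh stood at 246, 322 and 857, Ldha, lactate dehydrogenase A, at 281, 182 and 463 and Tpi1, triosephosphate isomerase, at 23.4, 41.4 and 147. Mif, which encodes a cytokine and tautomerase, stood at 46.8, 35.1 and 142. Ndrg1, a hypoxia-induced gene, had 5, 23 and 132 UMIs and was called lower at day 21 than at day 4. The log2 ratio for day 21 over day 4 was 1.405 (1.13 to 1.71) for Gapdh. Slc2a3, a glucose transporter, stood at 152, 217 and 129, under 2-fold apart between day 4 and day 21, and Pfkfb4, a regulator of glycolytic flux, at 187, 201 and 95.1.

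Oxidative phosphorylation genes had a median of 0.42 for day 21 over day 4, with 5 of 34 called higher and 0 lower. That share of higher genes was 14.7%, against 18.7% of all genes. Among the 33 with 10 or more UMIs expected in the smaller sum, 4 were higher and 0 lower, where 303 and 449 of all 2791 such genes were. Of the 34 log2 ratios, 29 were positive and 5 negative. Sdhc, a subunit of succinate dehydrogenase, had 1, 1 and 112 UMIs and Atp5k, of ATP synthase, 9, 8 and 601. For day 4 over control, 7 of 31 genes were called lower, and 3 of 29 without the deepest control barcode. Cox6c, of cytochrome oxidase, stood at 363, 124 and 327. Of the NADPH oxidase genes, 2 of 8 (25%) were called higher at day 21 than at day 4 and 0 lower. Cybb, the catalytic subunit gp91phox, stood at 35.1, 60.6 and 176 and Ncf1, the cytosolic organiser p47phox, at 328, 214 and 121. Alox5ap, the 5-lipoxygenase activating protein, stood at 1534, 1679.6 and 2719 and Pla2g7, a phospholipase that degrades platelet-activating factor, at 703, 794 and 299.7. Lta4h, which makes leukotriene B4, had 0, 2 and 84 UMIs, and the sign of the median of the lipid mediator list for day 21 over day 4 depended on the setting.

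Survival genes were lower at day 21 than at day 4 in 7 of 23 cases at 2-fold and higher in 1. The shares were 30.4 and 4.35%, against 16 and 18.7% of all genes. Mcl1, the main survival factor of neutrophils, was within 2-fold in the 3 libraries, at 1593, 2008 and 1647. Pmaip1, which encodes the pro-apoptotic NOXA, had 6, 15 and 52 UMIs, the caspase inhibitor Birc2 10, 15 and 88 and Bcl2 0, 12 and 74. Each of them was called lower at day 21 than at day 4. Among 23 transcription factors, 5 (21.7%) were called lower and 1 (4.35%) higher. Foxo3, a forkhead factor, had 4, 31 and 149 UMIs and was called lower. Of the day 21 UMIs of Irf8, called higher, 50% lay in 15 of 2153 members. Mxd1, a MYC antagonist of mature neutrophils, stood at 1464, 1437 and 606, Cebpb at 3127, 2457 and 1784 and Spi1, which encodes PU.1, at 819.8, 883 and 634. Of 14 heat shock genes, 2 (14.3%) were called higher and 1 (7.14%) lower. Hspe1, the mitochondrial co-chaperonin, had 7, 7 and 307 UMIs and was called higher. Dnaja1, an HSP40, had 19, 95 and 683 and was called lower.

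The cell cycle list made up 0.182, 0.172 and 0.197% of the members' UMIs, mostly through Hmgb2, a chromatin protein with 142, 524 and 6725 UMIs. The list held 22 of 24 genes called higher at day 21 than at day 4, but 15 of them had 0 UMIs in 1 of the libraries, and the median of 2.94 became 0.87 with those at their bound. Ube2c had 0, 0 and 229 UMIs, Top2a 0, 0 and 208 and Mki67 0, 0 and 147. Of 1302 day 21 UMIs of 12 mitotic genes, 85.6% lay in 36 of 2153 members, with a median depth of 7588 UMIs against 1773 in the other members, and 21 of the 36 were called doublets. Top2a in day 21 endothelial barcodes was at 54.1 CPM, against 43.2 in members.

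Antigen presentation genes differed from the control according to the deepest barcode. With it, 5 of 10 were called lower at day 4, with a median of -1.84. Without it, 0 were lower and 3 higher, with a median of 0.75. For day 21 over control the median was -2.27 with that barcode and -0.69 without it. The class I heavy chain H2-D1 stood at 3631, 3611 and 2113 and H2-K1 at 972, 682 and 438. H2-T23, a nonclassical class I gene, stood at 187, 306 and 113. Cd74, the class II invariant chain, had 212, 89 and 843 UMIs and 10 in the control without that barcode, and 50% of the day 4 and day 21 UMIs lay in 2 and 10 members.

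**Figure D3:**
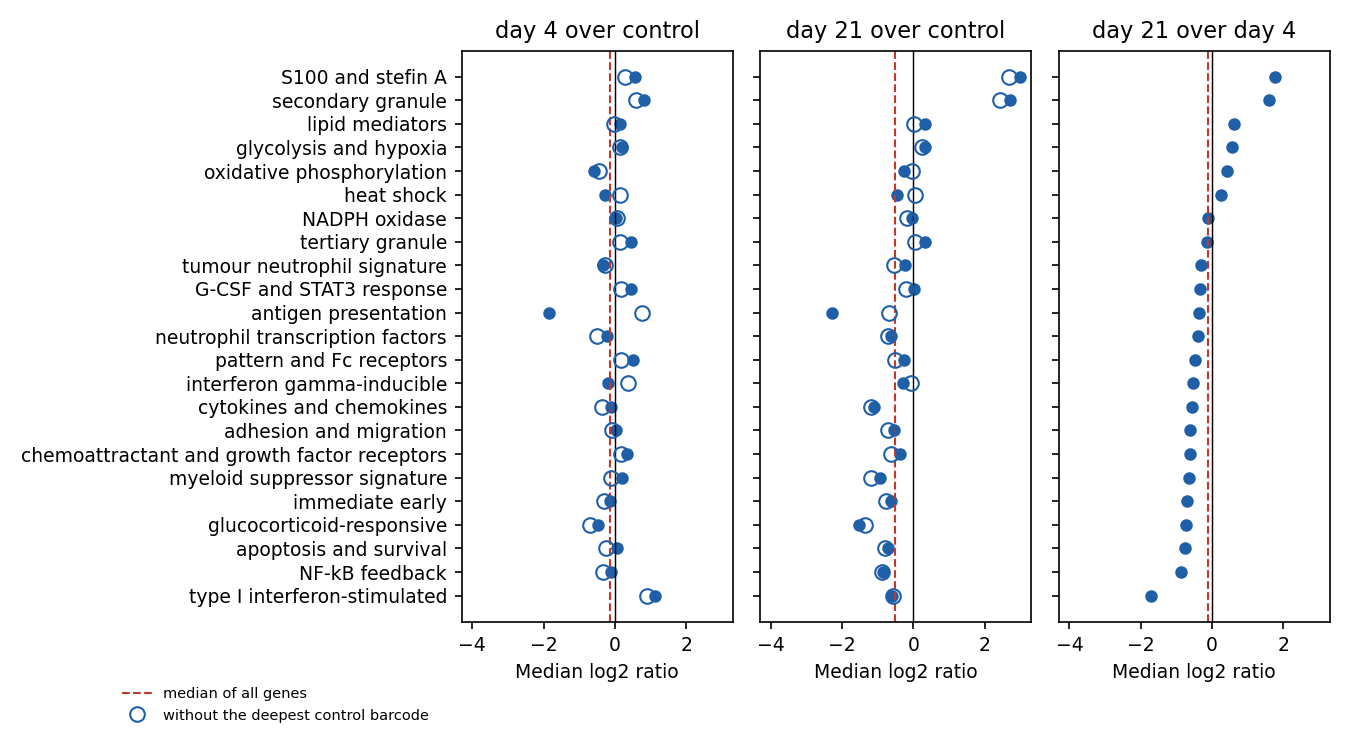
Each filled point is the median log2 ratio of the measured genes of a list, under total scaling, for 3 comparisons. Open circles leave out the deepest control barcode, and the dashed line is the median of all genes. Between day 21 and day 4 the interferon list lay lowest, at -1.71, and the S100 and stefin A list highest of those shown, at 1.78. The neutrophil marker, Ly6 family, primary granule and cell cycle lists are not shown. Primary granule and cell cycle lists had higher medians, and many of their genes had few UMIs at day 4.

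A rule on size picked 12 genes in each direction for each comparison, among 885, 2043 and 1684 eligible genes. Besides Wfdc17, Steap4, Gbp2b, Gbp7 and Ifit1, those highest at day 4 over control were Ctla2a, Acod1, Arhgap9, Cd82, Trim30a, Prelid1 and Fgb. Acod1, which makes itaconate, had 3, 65 and 340 UMIs, or 35.1, 207 and 70.6 CPM, and 0 in day 4 endothelial barcodes. Ctla2a, a cathepsin inhibitor, had 0, 51 and 154 UMIs, or 0, 163 and 31.96 CPM. Day 4 endothelial barcodes held it at 161 CPM. Fgb, fibrinogen beta of hepatocytes, was at 69.1 in those barcodes and 153 in members.

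Lowest at day 4 over control were Crip1, Tmsb10, Npm1, Cst3, Psap, Nktr, Plaur, Ndufa6, Ezr, Sla, Atp5c1 and Rbm3. Cst3 had a log2 ratio of -2.27, which was -0.08 without the deepest control barcode, Npm1 -2.45 and -0.54, Crip1 -3.23 and -1.63, and Tmsb10 -2.96 and 0.06. With and without that barcode, Atp5c1 had -1.58 and -0.56, and Psap -1.89 and -1.26. Plaur, the urokinase receptor, was as low without that barcode, at -1.76 and -2.04, from levels of 409.9, 121 and 155. So was Sla, a Src-like adaptor, at -1.599 and -1.66, with levels of 433, 143 and 86.5.

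Highest at day 21 over control, besides Stfa3, Prok2, Wfdc17, Ly6g, Ifitm6 and Stfa2, were Ggt1, Gyg, Atxn10, Upp1, Lipg and Serpinb1a. Ggt1, gamma-glutamyltransferase, had 0, 0 and 384 UMIs and was at least 8.34-fold higher than at day 4. Gyg, glycogenin, which primes glycogen, stood at 11.7, 38.2 and 229 and Upp1, uridine phosphorylase, at 23.4, 82.9 and 370.1. Lipg, endothelial lipase, had 0, 0 and 346 UMIs and was at 2.08 CPM in endothelial barcodes at day 21, against 71.8 in members. Between day 21 and day 4 the rule added Anxa3, BC117090, Gclm and Acadl. Gclm, a subunit of the enzyme that limits glutathione synthesis, had 4, 8 and 906 UMIs.

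Lowest at day 21 over control were Ptpn22, Sik1, Fam114a1, Elmsan1, Lars2, Csad, Slc7a11, AY036118, Trpm2, Rsad2, Ss18l2 and Mup3. Slc7a11, the cystine transporter, stood at 328, 287 and 32.4, 8.88-fold lower at day 21 than at day 4. Trpm2, an oxidant-sensitive calcium channel, stood at 293, 223 and 29.7. Endothelial barcodes held both at under 2 CPM in each library. Ptpn22, a tyrosine phosphatase, had 21, 10 and 51 UMIs, or 246, 31.9 and 10.6 CPM. Lars2 and AY036118 were also lower in endothelial barcodes, at 1469, 1302 and 268 and 502, 459.8 and 65.8 CPM, and what these share with the members' values was not tested. Between day 21 and day 4 the lowest were Ifit3b, Ifit3, Rsad2, Slc7a11, AY036118, Slfn5, Trpm2, Ccrl2, Acta2, Ifi27l2a, Slfn8 and Ifit1, of which 7 belong to the interferon list.

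The spread over cells was measured on members thinned to 1000 UMIs, which kept 43, 164 and 1739 and left out 6, 14 and 414 shallower ones. Per 1000 UMIs, S100 and stefin A genes outside the rule had medians of 14, 18 and 50, with quartiles of 12 and 25 at day 4 and 33 and 68 at day 21, so the interquartile ranges of these libraries did not overlap. Type I interferon genes had medians of 5, 11 and 6. At day 4 the upper quartile was 18 and the highest cell held 95, while 10 or more UMIs were found in 34.9, 57.9 and 19.1% of members. In the control, quartiles of 3 and 12.5 overlapped those at day 4.

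Immediate early genes had medians of 17, 13 and 7 and cytokine genes 10, 9 and 4. Endothelial medians were 4, 2 and 9 and 2, 2 and 3, so at day 21 the list sums were close in members and endothelial barcodes. The genes behind the sums differed. Il1b made up 0.315% of UMIs in day 21 members and 0.00268% in endothelial barcodes, while Il1a, Jun and Fosb were higher in endothelial barcodes. Tertiary granule genes had medians of 3, 4 and 3, with interquartile ranges that overlapped in the 3 libraries.

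**Figure D4:**
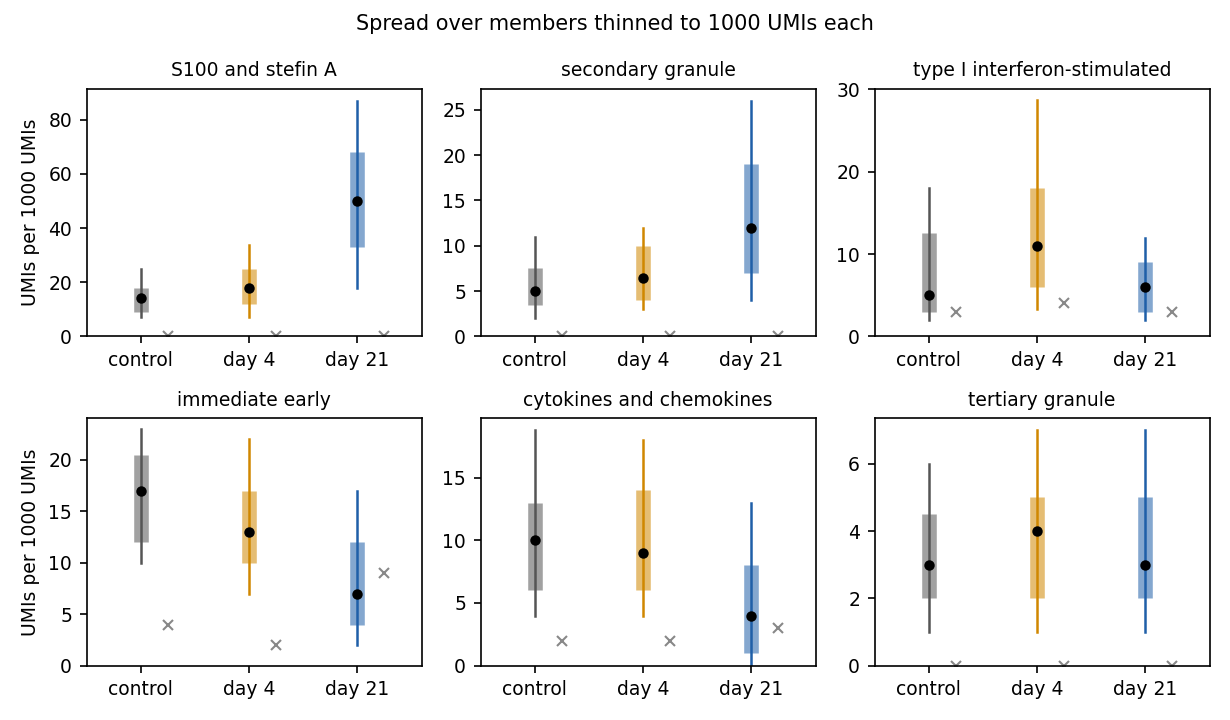
Black points are medians, thick bars the interquartile range and thin lines the 10th to 90th percentile of list UMIs per 1000 UMIs over thinned members of each library, and grey crosses are medians of endothelial barcodes thinned the same way. S100 and stefin A genes had medians of 14, 18 and 50 and immediate early genes 17, 13 and 7.

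Within day 21, members differed among themselves along the granule genes. Thinned members with 0 UMIs of Ngp, Camp and Ltf numbered 999, those with 1 UMI 425 and those with 2 or more 315, beside 1909 granule-rich barcodes. In that order, mean Lcn2 was 2.68, 3.87, 5.902 and 15.4 UMIs per 1000, Ifitm6 1.68, 2.96, 5.37 and 6.91 and Ly6g 0.382, 0.605, 1.06 and 1.597. Each successive set was higher in these genes. Il1b ran the other way, at 4.58, 3.55, 1.49 and 0.137, as did Junb, an AP-1 factor, at 1.86, 1.48, 0.813 and 0.238 and Cebpb at 2.15, 1.84, 1.48 and 0.51. Retnlg peaked inside the members, at 13.4, 17.2, 22.3 and 6.79, and so did Prok2, at 0.838, 1.24, 1.53 and 0.405.

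Granule-rich barcodes of the same library were lower in Wfdc17, at 19.4, 18.1, 12.7 and 2.21 UMIs per 1000 across the 4 sets, with summed levels of 15202 CPM in members and 1687 in granule-rich barcodes. Saa3 was at 0.496, 0.391, 0.0286 and 0.00786. Lyz2, lysozyme, was at 2.09, 2.38, 2.75 and 9.35, and the granule regulator Cebpe, a C/EBP factor of secondary granule stages, at 0.00901, 0, 0.0222 and 0.306. Sets are cells of 1 library split by genes of the rule, so these are descriptions. Median depth was 1793 UMIs in members and 6339 in granule-rich barcodes before thinning.

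**Figure D5:**
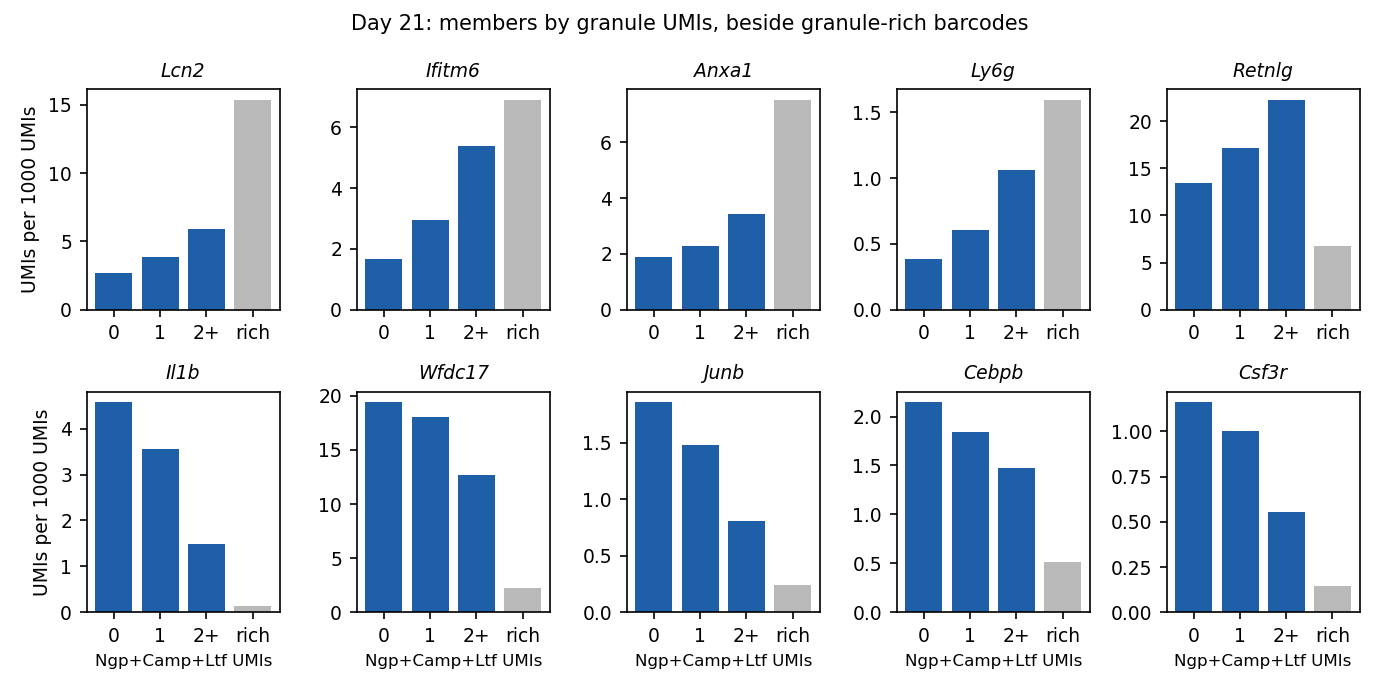
Bars give mean UMIs per 1000 UMIs at day 21 for members with 0, 1 and 2 or more UMIs of Ngp, Camp and Ltf after thinning (blue) and for granule-rich barcodes (grey). Lcn2 ran 2.68, 3.87, 5.902 and 15.4 and Il1b 4.58, 3.55, 1.49 and 0.137 from left to right.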

How the data were processed

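Liver non-parenchymal cells were measured in 3 droplet libraries, 1 per group. The deposited values are raw UMI counts per gene and barcode over 31053 genes. Per the file headers Cell Ranger 3.1.0 made them, and per the submitters' processing notes the build was mm10. Further upstream steps are not given in the sources used here. Members and gene lists were chosen with earlier results of these data known, so no pattern is independent support for a list.

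Counts were summed over the members of a library. In log2 ratios 0.5 was added to both sums, with exact conditional binomial intervals, and shares have exact Clopper-Pearson intervals. A gene at 0 is given as a bound from 3 counts per sum. The 27 lists leave out the 12 rule genes. Named genes were the 12 highest and 12 lowest log2 ratios among genes with 50 or more UMIs in the 2 sums, found in 10% or more of the members of the library where they were higher, and with a level there of 0.5 or more of that in barcodes with under 2% S100a8 and S100a9. Mitochondrial, ribosomal, haemoglobin, immunoglobulin, T-cell receptor, Gm and Rik genes were left out. List examples were the 2 to 4 genes furthest from 0 with 50 or more UMIs, and further examples were chosen after their values were seen. One list example is not reported here. Endothelial barcodes held 5 or more UMIs of Stab2, Clec4g, Kdr, Ptprb and Oit3, 0 of Ptprc, and under 2% S100a8 and S100a9.

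Doublets were scored with Scrublet in Scanpy 1.11.5 and kept in the values reported. Its threshold marked 32 barcodes of the control and 661 of day 21, but 6 of day 4 (0.109%), too few to have worked, so the 243 highest scores, the expected share, were taken there. The other tools were SciPy 1.17.1 and NumPy 2.4.6 under Python 3.11.15, with pandas 2.3.3 and matplotlib 3.10.9. The ratio step was run on simulated sums that held counting error only. They had no spread between cells, doublets or free RNA, so that run checks the calculation alone. Results were recomputed under 14 other settings and 2 chosen after seeing the data, namely leaving out the deepest control barcode and a limit on expected counts.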

Additional observations from a re-analysis of the deposited data

How the results depend on the processing

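The ratios of member shares kept their direction in every alternative run, and 1 moved beyond its interval: with no mitochondrial limit the log2 ratio of day 21 over day 4 was 3.02. No paired analysis was possible because each group had 1 library. Counts of genes at least 2-fold higher or lower depended on the setting, and the values that moved by over 1.5 times follow. For day 4 over control, higher and lower counts were 34 and 31 with S100a8 and S100a9 at 4% or more, 39 and 42 without the deepest control barcode, 133 and 62 by the median of ratios, 26 and 13 after thinning, 173 and 302 with 20 or more UMIs, and 24 and 58 with 100 or more. With every cell equal 51 were lower. For day 21 over control, 499 were higher without called doublets, 837 lower by the median of ratios, 1154 lower by the total without S100a8 and S100a9, 329 higher and 942 lower after thinning, 2920 lower with 20 or more UMIs, 448 higher and 1067 lower with 100 or more, and 99 and 149 with 10 or more expected. For day 21 over day 4, 396 were higher without called doublets, 494 higher without barcodes holding other markers, 581 lower by the median of ratios, 547 lower by the total without S100a8 and S100a9, 224 higher after thinning, 1591 and 1356 with 20 or more UMIs, 496 higher with 100 or more, and 303 and 449 with 10 or more expected. Fewer UMIs or genes enter after thinning and under the higher minimums, and the cause of the other moves was not tested.

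The lipid mediator median for day 21 over day 4 changed sign to -0.017 with no mitochondrial limit, -0.059 without called doublets, -0.70 without barcodes holding other markers, -0.0402 after thinning and -0.39 with 10 or more expected UMIs. The antigen presentation median for day 4 over control was 0.032 with S100a8 and S100a9 at 4% or more and 0.75 without the deepest control barcode. That barcode also turned Tmsb10, day 4 over control, to 0.063. The cell cycle median for day 21 over control was -0.26 with 10 or more expected UMIs. The 49 control members and their 85385 UMIs limit all comparisons with the control.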

Other observations

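How gene groups varied together from cell to cell is described for the 1739 thinned day 21 members, with Pearson's r over cells of 1 library that share its depth and free RNA, and no test. Cytokine and immediate early genes had r = 0.65 (Spearman's rho 0.68). The secondary granule list, with Ltb4r1 and without the rule genes, had r = -0.49 with immediate early genes and -0.43 with cytokine genes. Type I interferon genes had r of 0.01 with immediate early genes and 0.05 with cytokine genes. Glycolysis genes had r of 0.03 with cytokine genes.

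Some day 21 genes were spread over most members and others were concentrated. For Wfdc17, 50% of the UMIs lay in 418 of 2153 members and 50% of the Prok2 UMIs in 231, while 50% of those of Ccl3, a CC chemokine, lay in 8, of Irf8 in 15 and of S100a4 in 16. Ribosomal protein genes made up 6.74% of control UMIs and 3.44% without the deepest barcode, against 3.07% at day 4 and 4.43% at day 21.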
